A study of Mus musculus with 6 samples.

Results

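The secretory repertoire of club cells was followed through 10 genes in mouse airway epithelial organoids grown as flat cultures (2D-MAOs). The 10 genes were 3 secretoglobins (Scgb1a1, Scgb3a1 and Scgb3a2), the enzymes Cyp2f2 and Cbr2, the BPI fold proteins Bpifa1 and Bpifb1, the lectin Reg3g, haptoglobin (Hp) and lipocalin 2 (Lcn2). They were listed by name. All 10 had a probe with a RefSeq accession on the array, 12 probes in all, and all 10 were among the 14345 genes tested. Of the 10, 8 were well above background on all 6 arrays, Scgb3a1 on 5, and Bpifb1 on the 3 TGF-β1 arrays alone. Each culture was hybridised to 1 Agilent array in 1 colour (Cy3). The 2D-MAOs came from C57BL/6 lung airway epithelium and fell into 2 groups of 3 biological replicates. In the TGF-β1 group the cytokine was given from day 3, and the control group was cultured alike without it. Both groups were held from then on in a medium lacking noggin, an antagonist of BMPs, and A83-01, an inhibitor of TGF-β type I receptors, and RNA was taken on day 7. The comparison asked which genes of the airway epithelium respond to TGF-β1. Each array averaged over the whole culture dish, in which several epithelial cell types can grow side by side, and age, sex and number of donor animals were not given in the sources used here.

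Club cells are the non-ciliated secretory cells of the small airways. They release secretoglobins and host-defence proteins onto the airway surface, carry cytochrome P450 enzymes that process inhaled compounds, and can give rise to ciliated and other airway cells after injury. TGF-β1 binds paired receptor kinases that act through SMAD proteins, and in epithelia it is best known for slowing growth and for raising matrix genes. Of 8 genes listed as club cell markers, 5 were well above background on all 6 arrays (Scgb1a1, Scgb3a2, Cyp2f2, Cbr2 and Aldh1a1), Scgb3a1 was so on 5 arrays, and Cldn10 and Cckar were not among the genes tested.

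The 6 arrays lay on 1 slide with 1 scan time, and 55.0 to 59.0% of probes were well above background on each, with no saturated probe. Replicate 3 of both groups lay in row 2 of the slide and all others in row 1. The third TGF-β1 array stood apart from its group. Its Euclidean distance over all genes tested was 54.4 to 60.9 log2 units to the 3 controls and 61.1 to 62.3 to the other TGF-β1 arrays, which lay 32.3 from each other. Where leaving out the third TGF-β1 array changed a call among the club cell secretory genes or the lists of families and pathways around them, the value without it is given. For the other genes named here, such as Krt14, Foxj1 and Myo7a, the call without that array was not examined.

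Lcn2 rose with TGF-β1, by 2.65-fold, and was the only one of the 10 genes past both thresholds, a change of at least 2-fold and a limma p-value below 0.05 after Benjamini-Hochberg adjustment over all genes tested. This is 1 of 10 genes, where 198 of all 14345 genes (1.38%) were past both thresholds, 171 of them higher (1.19%) and 27 lower (0.188%). Scgb3a2 and Bpifb1 had higher values on every TGF-β1 array than on any control array, and Scgb1a1 had lower values on every TGF-β1 array, but none of the 3 passed the adjusted threshold. With Lcn2 these were 4 of 10 genes whose groups did not overlap, against 3782 of 14345 genes (26.4%), of which 1847 were higher (12.9%) and 1935 lower (13.5%). Bpifb1 was detected on the TGF-β1 arrays alone and entered the test only through them, which fixed its direction, and without it the count was 3 of 9 genes. The groups of Cbr2, Bpifa1, Reg3g, Hp and Scgb3a1 overlapped, and those of Cyp2f2 met at 1 value. The fitted changes of the 9 genes detected in both groups ran from −2.27 to 1.41 on the log2 scale. With Bpifb1 at its bound, given below, the median of all 10 was 0.04, against −0.03 for all genes tested. In a dish of mixed cells, fewer cells of a type and less RNA per cell cannot be told apart.

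**Figure D1:**
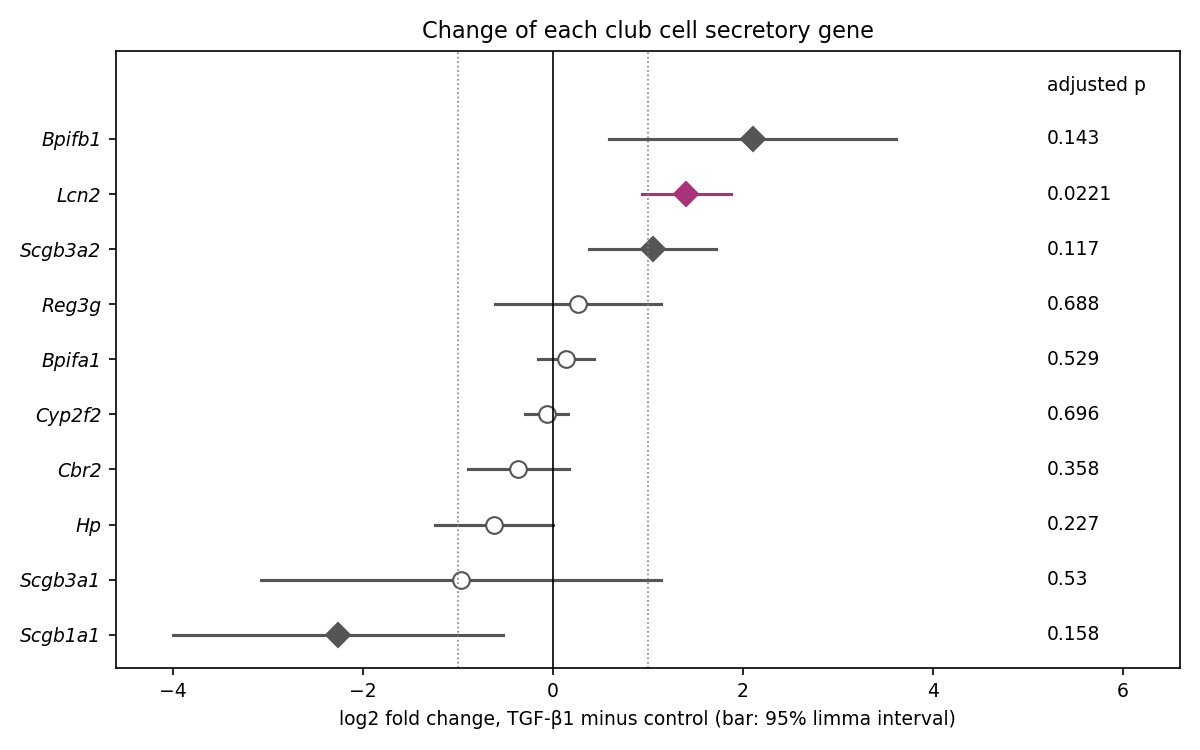
Fitted log2 fold change of each of the 10 genes (TGF-β1 minus control, horizontal axis), with the 95% limma interval as a bar and the adjusted limma p at the right. Diamonds mark the 4 genes whose groups did not overlap, the coloured one is Lcn2, the gene past both thresholds, and dotted lines mark a 2-fold change. The control value of Bpifb1 was not above background, so its fitted change is no measure of size.

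The starts of 3 of these genes are shown as sequence, to set the gene that rose, Lcn2, beside Bpifa1, on the same chromosome, and Cyp2f2, the 2 genes with the smallest fitted changes. Each line holds the 250 bases before the annotated start (RefSeq, GRCm38.p6), 5′ to 3′ on the strand of the gene. Capitals mark matches to any of 7 short motifs, searched on both strands.
Lcn2, chr2:32387740-32387989, minus strand: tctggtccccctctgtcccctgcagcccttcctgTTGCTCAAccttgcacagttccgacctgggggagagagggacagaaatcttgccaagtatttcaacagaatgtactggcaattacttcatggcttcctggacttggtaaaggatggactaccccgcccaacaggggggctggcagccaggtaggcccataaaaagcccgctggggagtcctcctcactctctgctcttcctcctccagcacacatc
Bpifa1, chr2:154142630-154142879, plus strand: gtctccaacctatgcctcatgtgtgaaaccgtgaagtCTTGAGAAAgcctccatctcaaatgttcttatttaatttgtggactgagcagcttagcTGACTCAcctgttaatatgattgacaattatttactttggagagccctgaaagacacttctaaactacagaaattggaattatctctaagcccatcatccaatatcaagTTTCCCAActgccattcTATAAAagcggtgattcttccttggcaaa
Cyp2f2, chr7:27119705-27119954, plus strand: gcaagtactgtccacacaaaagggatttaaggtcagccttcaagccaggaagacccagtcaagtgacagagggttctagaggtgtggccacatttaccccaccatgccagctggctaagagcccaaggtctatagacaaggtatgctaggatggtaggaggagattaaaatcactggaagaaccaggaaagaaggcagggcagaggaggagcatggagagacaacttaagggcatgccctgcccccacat
The motifs were TTNNGNAA for C/EBP factors, GGNNTTNCC for NF-κB, CAGACA for SMAD proteins, TGTTTAC for FOXA factors, TGANTCA for AP-1, CTCAAG for NKX2-1 and TATAAA for the TATA box. In the Lcn2 window only the C/EBP letters were found, from base −216 to −209. The Bpifa1 window held the C/EBP letters at −212 to −205 and at −46 to −39, the AP-1 letters at −155 to −149, the TATA letters at −29 to −24, and the NKX2-1 letters at −213 to −208, which overlap the first C/EBP match. None of the 7 was present in the Cyp2f2 window. Windows with these letters are common: of 32851 annotated mouse promoters, 36.8% held the C/EBP letters, 17.1% the SMAD letters, 13.5% the NF-κB letters, 13.3% the NKX2-1 letters, 12.4% the TATA letters, 6.75% the AP-1 letters and 3.17% the FOXA letters. Among the other members with a sequence in the table, Reg3g held NF-κB letters at −123 and −122, NKX2-1 letters at −39 and TATA letters at −161 and −27. Scgb3a1 held NKX2-1 letters at −172, and Cbr2 and both annotated Bpifb1 starts held none. The table had windows for 7 of the 10 genes, and those of Scgb1a1, Scgb3a2 and Hp were not used here.

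Among the secretoglobins, small secreted proteins that bind hydrophobic ligands, Scgb1a1 encodes CC10, the protein by which club cells are usually recognised. Its log2 normalised signal was 10.83, 10.18 and 7.77 on the 3 control arrays and 7.00, 7.57 and 7.42 on the 3 TGF-β1 arrays. Every TGF-β1 value was below every control value, but the third control was only 0.34 above the TGF-β1 array of its own slide row, whereas the other controls were far higher. The means were 9.59 ± 1.61 and 7.33 ± 0.30 (SD, n = 3). The log2 fold change was −2.27 (SE 0.73, adjusted limma p 0.158). The 95% interval ran from −4.00 to −0.53, and the exact permutation p was 0.1, the smallest that 3 against 3 arrays allow. The control arrays spanned 8.36-fold in Scgb1a1, and 99.96% of genes tested had a smaller SD among controls. All 6 spots were well above background, at 64.6, 35.0 and 7.98 times the local background on the control arrays and at 5.85 to 7.73 times on the TGF-β1 arrays.

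One control array decided the outcome for Scgb1a1. Without control 3 the log2 fold change was −3.18 with an adjusted limma p of 0.0205, past both thresholds, and without control 1 it was −1.65 with an adjusted p of 0.393. Within slide row 1 it was −3.23 (adjusted limma p 0.0102), and within row 2, with 1 array a group and so no test, the difference was −0.34. The 3 genes whose profile over the 6 arrays was nearest to that of Scgb1a1, by Euclidean distance between profiles centred on their means among 13509 genes, were Lyz1 (1.47), which encodes a lysozyme, Gm21944 (1.52) and Gchfr (1.66). Lyz1 was likewise lower on control 3 than on the other controls, with 6.40, 6.08 and 4.62 on the control arrays and 4.04, 4.72 and 4.25 on the TGF-β1 arrays.

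Scgb3a2, a secretoglobin of the distal airways, went the other way. It had values of 8.64, 9.46 and 9.05 on the control arrays and 10.55, 10.08 and 9.66 on the TGF-β1 arrays. The lowest TGF-β1 array, TGF-β1 3, was 0.21 above the highest control. The means were 9.05 ± 0.41 and 10.10 ± 0.44 (SD, n = 3), and the log2 fold change of 1.05 (SE 0.28, 95% interval 0.38 to 1.72) had an adjusted limma p of 0.117. Without the third TGF-β1 array the change was 1.27 with an adjusted p of 0.0330, past both thresholds, and within slide row 1 it was also 1.27 with an adjusted p of 0.0479. The difference in row 2 was 0.62.

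Scgb3a1, a secretoglobin of larger airways, was dim. It had 4.80, 6.09 and 4.28 on the control arrays and 5.54, 2.13 and 4.60 on the TGF-β1 arrays, and the second TGF-β1 value was not well above background. The groups overlapped, with means of 5.06 ± 0.93 and 4.09 ± 1.76 (SD, n = 3), a log2 fold change of −0.97 and an adjusted limma p of 0.530. Without the second TGF-β1 array the change was 0.010. Of the 18 listed secretoglobin genes 6 were tested, 11 were undetected throughout (no spot well above background), and none passed both thresholds. The median log2 fold change of the 6 was −0.59, and between −0.18 and −0.72 over the other settings tried. Scgb2b20 (log2 fold change −0.35, adjusted limma p 0.157) and Scgb1b3 (−0.18, adjusted p 0.417) belong to clusters of close paralogues, whose transcripts their probes may share.

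**Figure D2:**
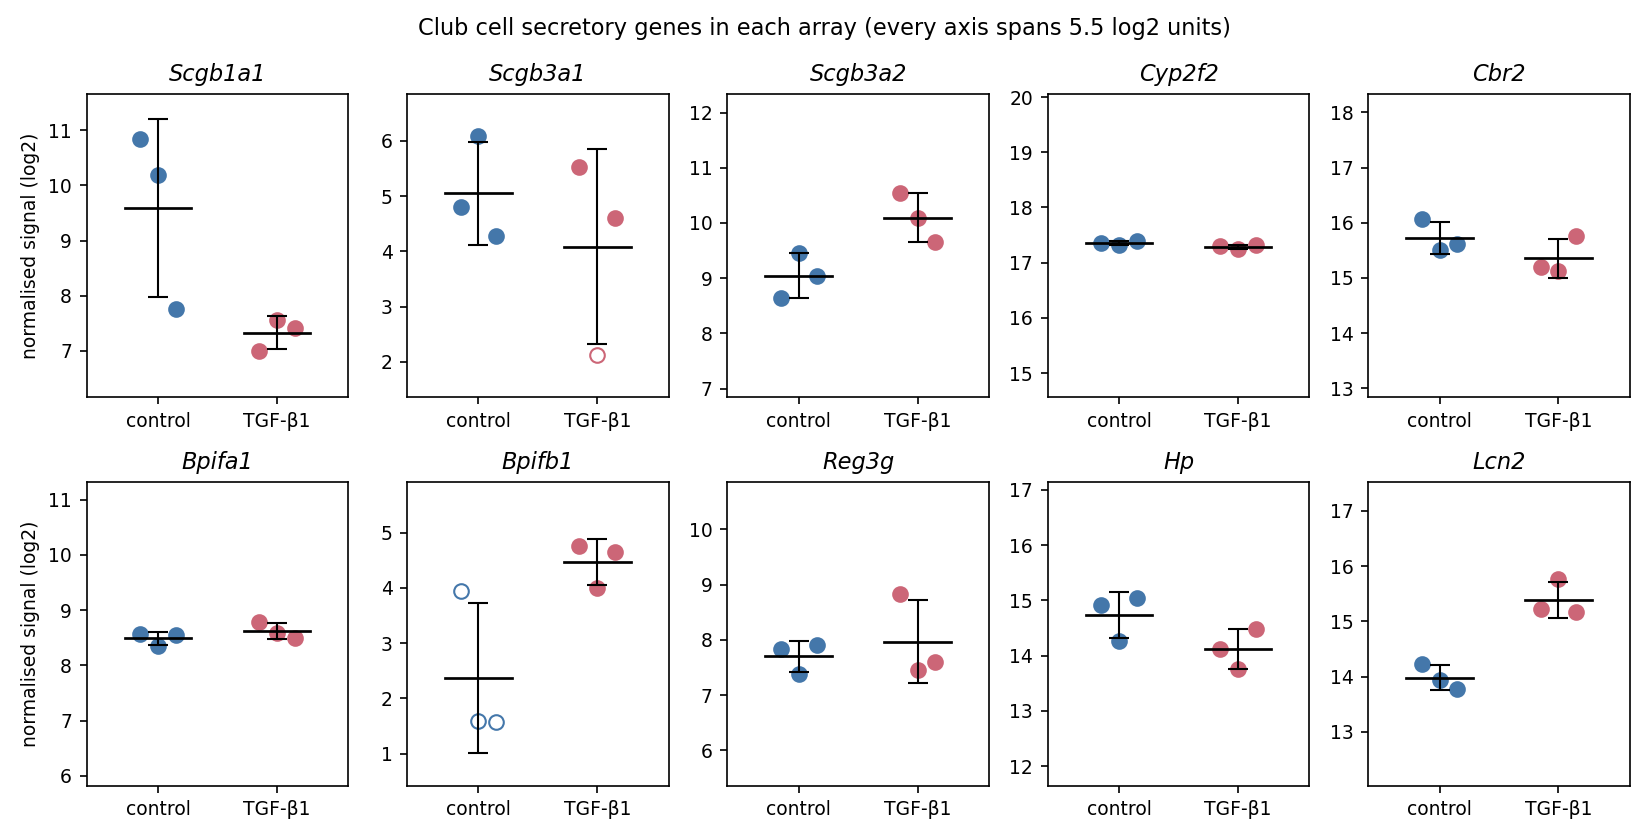
Log2 normalised signal of the 10 genes on the 3 control and 3 TGF-β1 arrays, 1 panel per gene, with replicates 1 to 3 from left to right, the mean as a line and the SD as an error bar. Open circles were not well above background, which was the case for all 3 controls of Bpifb1 and 1 TGF-β1 array of Scgb3a1. The controls of Scgb1a1 spread from 7.77 to 10.83, and all 6 values of Cyp2f2 lie between 17.24 and 17.39.

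The enzymes of club cells varied less. Cyp2f2, the cytochrome P450 that activates naphthalene in mouse club cells, had 17.35, 17.31 and 17.39 on the control arrays and 17.30, 17.24 and 17.31 on the TGF-β1 arrays. The groups met at the value that control 2 and TGF-β1 3 shared. Its means were 17.35 ± 0.04 and 17.28 ± 0.04 (SD, n = 3), and the log2 fold change of −0.07 had a 95% interval of −0.29 to 0.16 (adjusted limma p 0.696). A change of 2-fold in either direction lies outside that interval. The spots were bright, 4222 to 5023 times the local background, though not saturated. With scaling of each array to its 75th percentile in place of quantile normalisation, the change was −0.20 and the groups lay apart.

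Cbr2, a carbonyl reductase abundant in club cells, had 16.06, 15.50 and 15.61 on the control arrays and 15.19, 15.12 and 15.76 on the TGF-β1 arrays. The third TGF-β1 array lay among the controls and the others below them. The log2 fold change was −0.36 (SE 0.22, adjusted limma p 0.358) with a 95% interval of −0.89 to 0.17, and without the third TGF-β1 array it was −0.57 (adjusted p 0.0878). A second Cbr2 probe differed by −0.67, with a mean of 12.97 ± 0.38 in the control and 12.30 ± 0.46 in the TGF-β1 group (SD, n = 3). Within slide row 2 the Cbr2 probe that stands for the gene was higher with TGF-β1, by 0.15.

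The other listed club cell genes, mostly enzymes that metabolise foreign compounds, had a median below that of all genes. Of 27 genes, 21 were tested, and 17 had a fitted change below 0, with a median of −0.19 against −0.03 for all genes tested. None passed both thresholds, and 7 of the 21 had lower values on every TGF-β1 array than on any control, as did 13.5% of all genes tested. No gene of the list was higher on every TGF-β1 array, as were 12.9% of all genes. Over the alternatives the median stayed below 0, from −0.48 within slide row 1 to −0.10 without control 1. Aldh1a7, an aldehyde dehydrogenase, had 10.76, 11.17 and 11.01 on the control arrays and 9.79, 10.20 and 9.34 on the TGF-β1 arrays, a log2 fold change of −1.20 with an adjusted limma p of 0.0567. It was past both thresholds under 5 of 16 alternatives. Cyp4b1, a P450 of the lung, had 12.42, 12.28 and 11.90 against 11.40, 11.36 and 11.19. Its log2 fold change of −0.88 had an adjusted limma p of 0.0484 but was smaller than 2-fold. Gabrp, a subunit of the GABA type A receptor, was past both thresholds without the third TGF-β1 array (1.13, adjusted limma p 0.0241), against 0.56 with it (adjusted p 0.493). Of the regulators of P450 genes, 15 of 18 were tested, 12 had a fitted change below 0 (median −0.14) and none passed both thresholds. Cyb5a, the cytochrome b5 that passes electrons to P450 enzymes, had a log2 fold change of −0.58 (adjusted limma p 0.0992), and Hlf, a clock-controlled transcription factor, had −0.68 (adjusted p 0.404) with all arrays and −1.24 (adjusted p 0.0146) without the third TGF-β1 array.

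Bpifa1 and Bpifb1 encode secreted BPI fold proteins of the airway surface liquid. Bpifa1 had 8.56, 8.35 and 8.55 on the control arrays and 8.79, 8.59 and 8.50 on the TGF-β1 arrays, overlapping groups with a log2 fold change of 0.14 (SE 0.12, adjusted limma p 0.529). Bpifb1 lay at the limit of detection. None of the 3 control spots was well above background, at 1.05 to 1.42 times the local background, and all 3 TGF-β1 spots were, at 1.74 to 2.23 times. The log2 values were 3.94, 1.59 and 1.57 on the control arrays and 4.76, 3.99 and 4.65 on the TGF-β1 arrays. The first control was nearly level with the second TGF-β1 array. Against the lowest signal that counts as above background, or the spot itself where that was higher, Bpifb1 was at least 1.41-fold higher with TGF-β1, and the adjusted limma p was 0.143. Since Bpifb1 passed the filter on dim probes only through the TGF-β1 arrays, the filter fixed the direction of its change. Without control 1 the adjusted limma p was 0.0176. Of 18 listed genes of the BPI fold family 6 were tested and none passed both thresholds. Pltp, the phospholipid transfer protein, had a log2 fold change of 0.96 (adjusted limma p 0.0911), and Bpifa5 had −0.09 (adjusted p 0.777).

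Reg3g encodes a C-type lectin that kills Gram-positive bacteria. Its values were 7.83, 7.38 and 7.90 on the control arrays and 8.84, 7.46 and 7.60 on the TGF-β1 arrays. A single TGF-β1 array was higher than the controls, and the others lay among them. The log2 fold change was 0.26 (SE 0.37, adjusted limma p 0.688), and −0.17 without the first TGF-β1 array. Reg3g was the only one of 7 listed Reg genes tested, and 5 of the others were undetected throughout. Of 34 other secreted defence genes of the airway, 16 were tested, 8 with a fitted change above and 8 below 0, and none passed both thresholds. Lyz1 had a log2 fold change of −1.36 (adjusted limma p 0.167), and Defb1, a beta-defensin, had 1.02 (adjusted p 0.201). The mucin genes Muc5ac and Muc5b were not well above background anywhere.

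Hp and Lcn2 are acute phase genes that bind haemoglobin and iron-carrying siderophores, respectively. Hp had 14.92, 14.27 and 15.04 on the control arrays and 14.12, 13.75 and 14.49 on the TGF-β1 arrays. The groups overlapped in that TGF-β1 3 was above control 2. The means were 14.74 ± 0.42 and 14.12 ± 0.37 (SD, n = 3), and the log2 fold change was −0.62 (SE 0.26, adjusted limma p 0.227). Without TGF-β1 3 it was −0.81 (adjusted limma p 0.0840). Lcn2 had 14.22, 13.94 and 13.78 on the control arrays and 15.23, 15.77 and 15.17 on the TGF-β1 arrays. The lowest TGF-β1 array was 0.95 above the highest control. Its means were 13.98 ± 0.22 and 15.39 ± 0.33 (SD, n = 3), and the log2 fold change was 1.41 (SE 0.20, 95% interval 0.93 to 1.88, adjusted limma p 0.0221). A second Lcn2 probe also separated the groups, with 12.41 ± 0.30 in the control and 13.69 ± 0.25 in the TGF-β1 group (SD, n = 3), a difference of 1.28.

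The size of the Lcn2 change was steadier than its call. Leaving out any one of the arrays kept the log2 fold change between 1.22 and 1.53, and it was 1.41 within slide row 1 and 1.39 within row 2. With scaling of each array to its 75th percentile it was 1.16 (adjusted limma p 0.0360). The adjusted limma p stayed below 0.05 without the third TGF-β1 array (0.0124). It was above 0.05 without control 1 (0.0588), control 2 (0.0977), control 3 (0.0542), TGF-β1 1 (0.0834) or TGF-β1 2 (0.0644), and also without a filter on dim probes (0.0922).

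**Figure D3:**
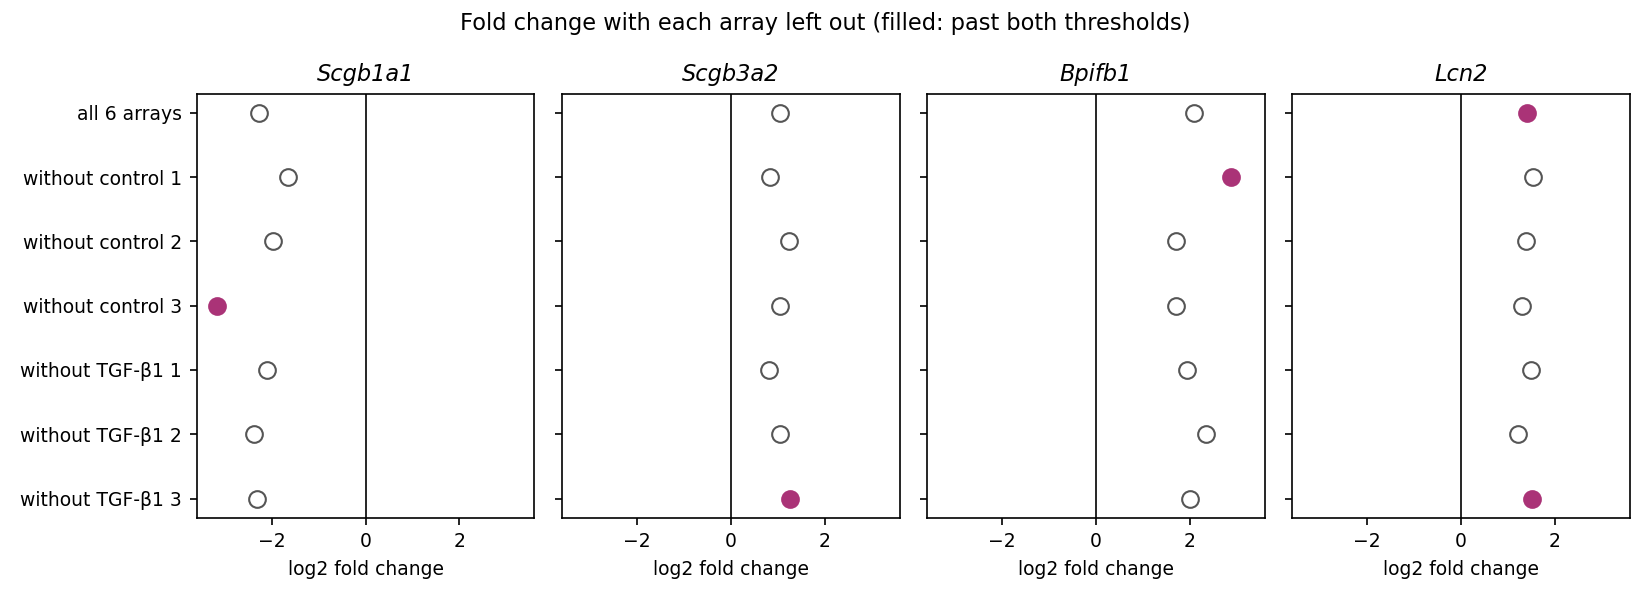
Log2 fold change (TGF-β1 minus control) of the 4 genes whose groups did not overlap, with all 6 arrays in the top row and with 1 array left out in each row below. Filled circles are past both thresholds: Lcn2 with all arrays and without TGF-β1 3, Scgb1a1 without control 3, Scgb3a2 without TGF-β1 3 and Bpifb1 without control 1. Bpifb1 was not above background in the controls and entered the test only through the TGF-β1 arrays, so its circles are no measure of size. Since these groups did not overlap, leaving out 1 array could not move a circle across 0.

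No other tested acute phase gene or lipocalin was past both thresholds. Of 23 listed acute phase genes 10 were tested, Lcn2 alone was past both thresholds, and the median was −0.10. Of the 10, 5 had a fitted change above 0 and 5 below. On every TGF-β1 array 3 of the 10, Lcn2 among them, were higher than on any control, and 1 was lower. The shares over all genes tested were 12.9% and 13.5%. Itih4 had a log2 fold change of −0.47 (adjusted limma p 0.246) and Orm1, an orosomucoid, had −0.46 (adjusted p 0.291). Among 5 lipocalin genes tested of 15 listed, 3 had lower values on every TGF-β1 array than on any control, as did 13.5% of all genes tested, and none of the 3 was past the thresholds. Ptgds, the lipocalin-type prostaglandin D synthase, had 14.45, 13.75 and 14.31 on the control arrays and 13.40, 12.91 and 13.68 on the TGF-β1 arrays (log2 fold change −0.84, adjusted limma p 0.145). It was past both thresholds without TGF-β1 3 (−1.01, adjusted limma p 0.0493). Lcn6 had a change of −0.51 (adjusted limma p 0.0979). Of 29 listed inflammatory ligands, receptors and signal carriers 25 were tested and none passed both thresholds. Osmr, the receptor of oncostatin M, had a log2 fold change of 0.73 (adjusted limma p 0.154), and Il1r1 had 0.40 (adjusted p 0.243). The ligand genes Il6, Il1a and Il1b were likewise at background throughout.

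Of 31 listed regulators of the airway secretory lineage 30 were tested, and 2 were past both thresholds, both higher, against 1.19% of all genes. On every TGF-β1 array 5 of the 30 were higher than on any control and 6 were lower, and the median was −0.07. The same held for 12.9% (higher) and 13.5% (lower) of all genes tested. Sox9, a transcription factor of distal lung progenitors, had 7.10, 7.75 and 7.77 on the control arrays and 8.75, 8.94 and 8.52 on the TGF-β1 arrays, and rose by 2.30-fold (adjusted limma p 0.0468). Etv4, an ETS factor, had 8.55, 8.66 and 8.36 against 9.62, 9.54 and 9.65, and rose by 2.11-fold (adjusted limma p 0.0107). Neither call was stable. Over 16 alternatives Etv4 was past both thresholds in 9 and Sox9 in 7, and both calls were lost with normexp background correction, with the replicate block and without control 1, control 3, TGF-β1 1 or TGF-β1 2. The Sox9 call was also lost without control 2, without a filter on dim probes and with the slide row as a block, and that of Etv4 within slide row 1. The adjusted limma p over all alternatives ran from 0.00546 to 0.178 for Sox9 and from 0.00137 to 0.0604 for Etv4. With all arrays Elf3 (−0.94, adjusted limma p 0.152) and the Notch pathway genes Jag1 (0.85, adjusted p 0.249) and Notch3 (0.94, adjusted p 0.222) were not past both thresholds. Without TGF-β1 3, a setting in which 709 of all genes passed both, Elf3 was past both and lower (−1.17, adjusted limma p 0.0400). In that setting Jag1 (1.28, adjusted p 0.0241) and Notch3 (1.39, adjusted p 0.0144) were past both and higher. Nkx2-1, the lung lineage factor, had a log2 fold change of −0.01 (adjusted limma p 0.965), and Notch2 had 0.27 (adjusted p 0.334). Nkx2-1, Notch2, Elf3, Jag1, Notch3 and Gabrp were named after their values were seen.

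**Figure D4:**
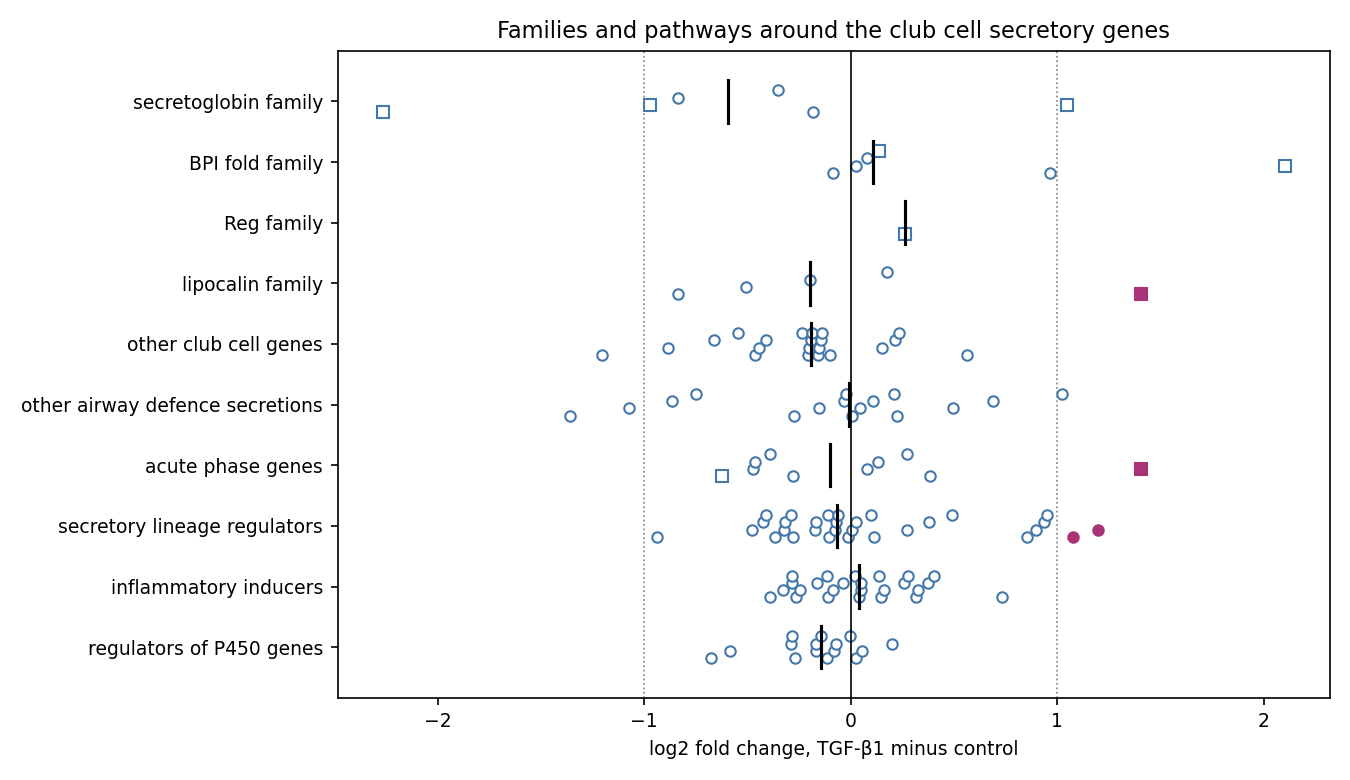
Log2 fold change (TGF-β1 minus control) of each tested gene in 10 lists of families and pathways around the club cell secretory genes. Squares are members of the 10 genes and circles the other genes, filled where past both thresholds (Lcn2, Sox9 and Etv4), the black tick is the median of a list, and dotted lines mark a 2-fold change. Bpifb1, at the right of its family, was not above background in the controls.

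Markers of other cell types were present beside those of club cells. All 9 basal cell markers were well above background on every array. Their summed signal was 164639 to 184671 in the control and 171643 to 278897 in the TGF-β1 group. Of the 9, 6 had a fitted change above 0 and 3 below, with a median of 0.09, and none passed both thresholds. The largest change of the list was that of Krt14, at 1.55 on the log2 scale (adjusted limma p 0.0859). Of 10 ciliated cell markers tested, Foxj1, the master regulator of motile cilia, rose by 2.77-fold (adjusted limma p 0.00239), while the summed signal was 43511 to 46721 in the control and 39374 to 42864 in the TGF-β1 group. The summed signal of the type 1 alveolar list was 282937 to 320279 in the control and 256484 to 298993 in the TGF-β1 group. Sftpc, Sftpb, Sftpa1, Napsa and Slc34a2 of the type 2 alveolar list were undetected on every array, and the sum of the other markers was 20829 to 25655 against 22509 to 25780. Of the goblet cell markers 5 of 8 were not well above background anywhere, and the summed signal of those tested was 63.2 to 128 against 43.4 to 105. Fibroblast markers summed to 542 to 620 in the control and 671 to 2396 in the TGF-β1 group. All 4 of that list that were tested had a fitted change above 0, and 2 of them were well above background on all 6 arrays. The other 2, Col1a1 and Col1a2, were well above background on the 3 TGF-β1 arrays and undetected in all 3 controls. They therefore entered the test only through the group in which they were high. Their log2 means there, 5.08 and 5.25, made up a small part of the summed signal. Col3a1, Lum, Pdgfrb, Pi16 and Tcf21 were undetected on every array. The leukocyte genes Ptprc, Adgre1, Lyz2, S100a8 and S100a9 were likewise not above background, and the leukocyte list summed to 10551 to 12263 in the control and 13552 to 14736 in the TGF-β1 group. Endothelial markers were mostly undetected, 6 of 8 on every array. The part of such shifts in the values of the club cell secretory genes was not tested.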

How the data were processed

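Total RNA of 6 cultures was labelled with Cy3 and hybridised to Agilent SurePrint G3 mouse arrays. The authors deposited scanner files with 62976 spots per array, made with Agilent Feature Extraction 11.0.1.1, and the deposited processed signal is a linear intensity after background correction. Control spots and 74 to 112 spots per array marked as outliers were left out, spots of a probe were averaged as log2 values, and arrays were quantile normalised, which the methods of the study also name. RefSeq accessions named 32991 of 35883 probes with one. Probes had to be well above background on 3 or more of the 6 arrays, and the brightest probe stood for its gene, giving 14345 of 22910 genes. Groups were compared with limma 3.58.1 in R 4.3.3 over all genes, checked on simulated data. Single values were also compared by a two-sided exact permutation test. The number of arrays limits the precision. The members and gene lists were chosen with earlier results of these data known. All members were named, and in each list the genes past both thresholds with the largest change, or otherwise those with the largest change detected on every array. Alternatives covered scaling, background, filter, probe choice, variance prior, array weights, slide row, replicate number, test, threshold and each array left out.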

Additional observations from a re-analysis of the deposited data

How the results depend on the processing

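With the alternatives tried, the count of genes past both thresholds (198) became 60 with no filter on dim probes, 807 with array weights, 861 within slide row 1, 388 with the methods' t-test unadjusted, 5 after Benjamini-Hochberg adjustment of that test, 493 with the unadjusted limma p, and 56 to 709 with each array left out. For the club cell secretory genes the count of 1 became 0 with no filter and with the adjusted t-test, 3 with array weights and within slide row 1 (Scgb1a1, Scgb3a2 and Lcn2), 2 with the unadjusted t-test, 4 with the unadjusted limma p, and 0 to 2 with each array left out. With the replicate block, 103 genes and 0 of the 10 members passed, and Lcn2 had an adjusted limma p of 0.0673. Same-numbered arrays deviated from their group means with correlations of −0.0079, 0.333 and −0.047, so the numbers were not taken to pair the cultures. The direction reversed within slide row 2, which holds 1 array a group, for Scgb3a1 (0.32), Cbr2 (0.15), Bpifa1 (−0.052) and Reg3g (−0.30). With 1 array left out, the log2 fold change ran from −1.69 to 0.010 for Scgb3a1 and from −0.17 to 0.51 for Reg3g. The other 6 members kept their direction under every alternative run. For Scgb1a1, Scgb3a2, Bpifb1 and Lcn2 leaving out arrays could not reverse it, since their groups did not overlap. The filter on dim probes also fixed the direction of Bpifb1. The cause of these differences was not tested. Fits without 1 array assume that the remaining arrays of that group vary like the other group.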

Other observations

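The genes nearest to Lcn2 in profile over the 6 arrays, chosen after the values of Lcn2 were seen, were Myo7a, an unconventional myosin, at a Euclidean distance of 0.353, Paqr5, a membrane progestin receptor, at 0.362, and Pmepa1, a membrane protein that dampens TGF-β signalling, at 0.486. Myo7a had 9.60, 9.51 and 9.61 on the control arrays and 10.92, 11.25 and 10.77 on the TGF-β1 arrays, and rose by 1.41 on the log2 scale (adjusted limma p 0.00892). Paqr5 rose by 1.40 (adjusted limma p 0.0216) and Pmepa1 by 1.31 (adjusted limma p 0.00619). The profiles were compared over 13509 genes on the same arrays, so the likeness is a description of these 6 cultures.

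Among secreted defence genes outside the 10 members, Ltf, which encodes the iron-binding protein lactoferrin, had 13.67, 13.19 and 12.99 on the control arrays and 12.23, 12.73 and 12.29 on the TGF-β1 arrays. Every TGF-β1 value was below every control value, with a log2 fold change of −0.87 and an adjusted limma p of 0.10. Like the iron-carrier binding Lcn2 it is a protein that withholds iron from bacteria, and the fitted changes of the pair had opposite signs. Ltf was chosen after its values were seen.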
